A study of Mus musculus with 9 samples.

Results

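The Notch pathway was read in sorted endothelial cells of the mouse retina through 10 genes: the receptors Notch1, Notch2 and Notch4, the ligands Dll1, Dll4, Jag1 and Jag2, the DNA-binding effector Rbpj and the target genes Hes1 and Hey1. The members are all probe sets whose platform annotation names exactly 1 of these symbols, 22 of the 36701 probe sets on the arrays, of which array design A held 12, design B 4 and design C 6. Probe sets were taken by gene name, for a list of genes drawn up with earlier results of these data known.

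Every array carried RNA of the same kind of cell. Mice homozygous for a Tie2-GFP transgene, in which the endothelial Tie2 promoter drives green fluorescent protein, were injected with APB5, a neutralizing antibody against PDGFRb, from postnatal day 0 to day 7, and GFP-positive retinal cells were sorted at day 8 from pooled retinas. PDGFRb is the receptor by which pericytes are recruited to vessels, and the Tie2 promoter is also active in some blood cells. Amplified RNA was hybridised to 3 replicate arrays of each of the Affymetrix MGU74v2 designs A, B and C, 9 arrays in all. No arrays of mice without the antibody were analysed here, so no effect of the antibody can be read and no conditions were compared. Nothing in the labels tells whether separate pools of retinas lie behind the replicates, so every spread below is a spread between arrays and may be technical.

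Notch signalling passes between touching cells. A ligand of the Delta or Jagged family on one cell pulls on a Notch receptor on its neighbour, ADAM and gamma-secretase proteases cut the receptor, and the freed intracellular part enters the nucleus, binds RBPJ and a Mastermind coactivator and switches on genes such as those of the HES and HEY repressors. In the growing retinal vasculature, Dll4 on tip cells acts through Notch1 on the cells behind them to limit sprouting, Jag1 counteracts this, and Notch activity is needed for arterial identity.

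The DNA ahead of the start sites shows where RBPJ could be sought at the receptor, the ligand and the effector of this core route, and RefSeq sequences (GRCm38.p6) are given below, 5′ to 3′ along the gene, as the 250 bases before an annotated start. The capitals mark the RBPJ core TGGGAA or its reverse complement TTCCCA. The Notch1 window lies at chr2:26503823-26504072 on the minus strand and the Dll4 window at chr2:119325534-119325783 on the plus strand. Each lies ahead of its own gene, the first partly within the noncoding RNA gene Gm35978 and the second within the noncoding RNA gene Gm14207. The Rbpj window, chr5:53590096-53590345 on the plus strand, lies inside the annotated gene ahead of one of its internal starts.
Notch1: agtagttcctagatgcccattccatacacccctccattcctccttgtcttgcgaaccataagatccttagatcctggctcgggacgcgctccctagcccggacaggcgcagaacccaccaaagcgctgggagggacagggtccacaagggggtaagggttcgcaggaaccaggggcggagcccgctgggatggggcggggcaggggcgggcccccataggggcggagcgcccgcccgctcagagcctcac
Dll4: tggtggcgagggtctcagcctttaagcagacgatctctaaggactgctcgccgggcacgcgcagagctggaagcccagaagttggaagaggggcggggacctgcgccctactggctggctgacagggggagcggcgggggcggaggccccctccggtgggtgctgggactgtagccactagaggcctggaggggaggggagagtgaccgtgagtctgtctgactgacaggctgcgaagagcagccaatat
Rbpj: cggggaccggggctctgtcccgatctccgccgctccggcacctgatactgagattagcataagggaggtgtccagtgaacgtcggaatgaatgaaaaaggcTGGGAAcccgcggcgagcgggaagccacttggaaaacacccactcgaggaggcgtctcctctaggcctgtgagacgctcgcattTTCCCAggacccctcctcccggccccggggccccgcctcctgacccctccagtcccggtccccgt
The core was found in the Rbpj window, once on each strand, 149 and 65 bases before the start counted from the first base of each match, and not in the Notch1 or Dll4 window. The promoter table held 10 starts of 8 of the 10 genes. It held none of the target genes Hes1 and Hey1, which were therefore not searched. Both starts of Rbpj, and no other of the 10 starts, had the core. Among all 32851 windows of this length, 21.6% held it. The arrays measured transcripts and not binding, and a match is a description of letters.

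Positions are given as the percentile of a probe set's deposited intensity among all probe sets of its array, averaged over the 3 arrays. As a floor, the 40th percentile of each array was used, equal to an intensity of 33.5 to 34.9 for design A, of 33.6 to 35.1 for design B and of 25.3 to 25.4 for design C. A probe set is called above the floor where it exceeded the floor on all 3 arrays. The floor stands in for a detection call, and a transcript may be present below it. Probe sets differ in how well they hybridise, so the positions do not rank the genes by transcript level. In sorted cells, fewer cells with a transcript and less transcript per cell cannot be told apart.

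The sorted cells carried endothelial transcripts. Over all designs, 56.5% of the 36701 probe sets exceeded the floor. All 19 probe sets of 11 endothelial marker genes exceeded the floor, with a median percentile of 95.8 and a summed intensity of 14299 to 16338 per replicate. Of 19 probe sets of 12 mural marker genes, 8 exceeded it, with a median percentile of 39.2 and a summed intensity of 572 to 613. Of 27 probe sets of 12 Muller glia and astrocyte genes, 8 exceeded it, with a median of 31.0 and a sum of 1037 to 1052. Among 16 probe sets of 9 retinal progenitor and neuron genes, 7 exceeded it, with a median of 42.7 and a sum of 1772 to 2627, most of it from the Pcp2 probe set 102376_r_at, which read 1898, 1008 and 1289. Of 10 probe sets of 7 blood genes, 5 exceeded it, with a median of 46.8, and of 17 probe sets of 11 macrophage and microglia genes, 6 did, with a median of 35.1. No probe set of these lists read 0. Each sum runs over a list's probe sets on the equally numbered arrays of designs A, B and C. Those arrays are not known to share RNA, and the lists differ in number of probe sets, so the sums do not compare cell types. Glia and progenitors also use Notch, and their part in the values below was not tested. Within these lists the positions ran wide. Among endothelial genes, the only probe set of Pecam1 lay at percentile 52.4, and the 2 probe sets of Kdr at 99.3 and 49.6. Among progenitor and neuron genes, Pax6 lay at percentile 3.24, Crx at 70.8 and Calb2 at 75.2, and the 2 probe sets of Pcp2 at 98.8 and 14.3. Among glial genes, Kcnj10 lay at 7.75 and Rlbp1 at 27.0, whereas single probe sets of Aldh1l1, Glul and Sox9 reached 81.1, 81.5 and 89.2. The hemoglobin gene Hba-a1 lay at 75.1 and the platelet gene Gp9 at 72.2, and the macrophage receptor gene Csf1r had probe sets at 38.4 and 87.2.

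Each of the 10 Notch genes had at least 1 probe set above the floor. Passing it is not detection, since 17 of 32 genes listed for unrelated tissues, with 21 of their 53 probe sets, also passed. Whether each of these 32 genes is silent in the retina was not tested. Of the 22 Notch probe sets, 15 exceeded the floor (68.2%), beside 56.5% of all 36701 probe sets. At the level of genes, 10 of 10 passed, beside 72.4% of the 15964 genes with a single-symbol probe set. A gene passed here with any 1 of its probe sets, so more probe sets gave more chances. The 10 genes had 22 probe sets and the 15964 genes had 29131, and the shares were not matched for this. The median percentile of the 22 was 57.3, beside 50.0 for all probe sets. Every probe set passed for 5 of the 10 genes, beside 45.1% of all genes. By design, A had 9 of 12 above the floor (56.6% of all its probe sets), B had 4 of 4 (56.4%) and C had 2 of 6 (56.4%). No test was made of these shares.

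**Figure D1:**
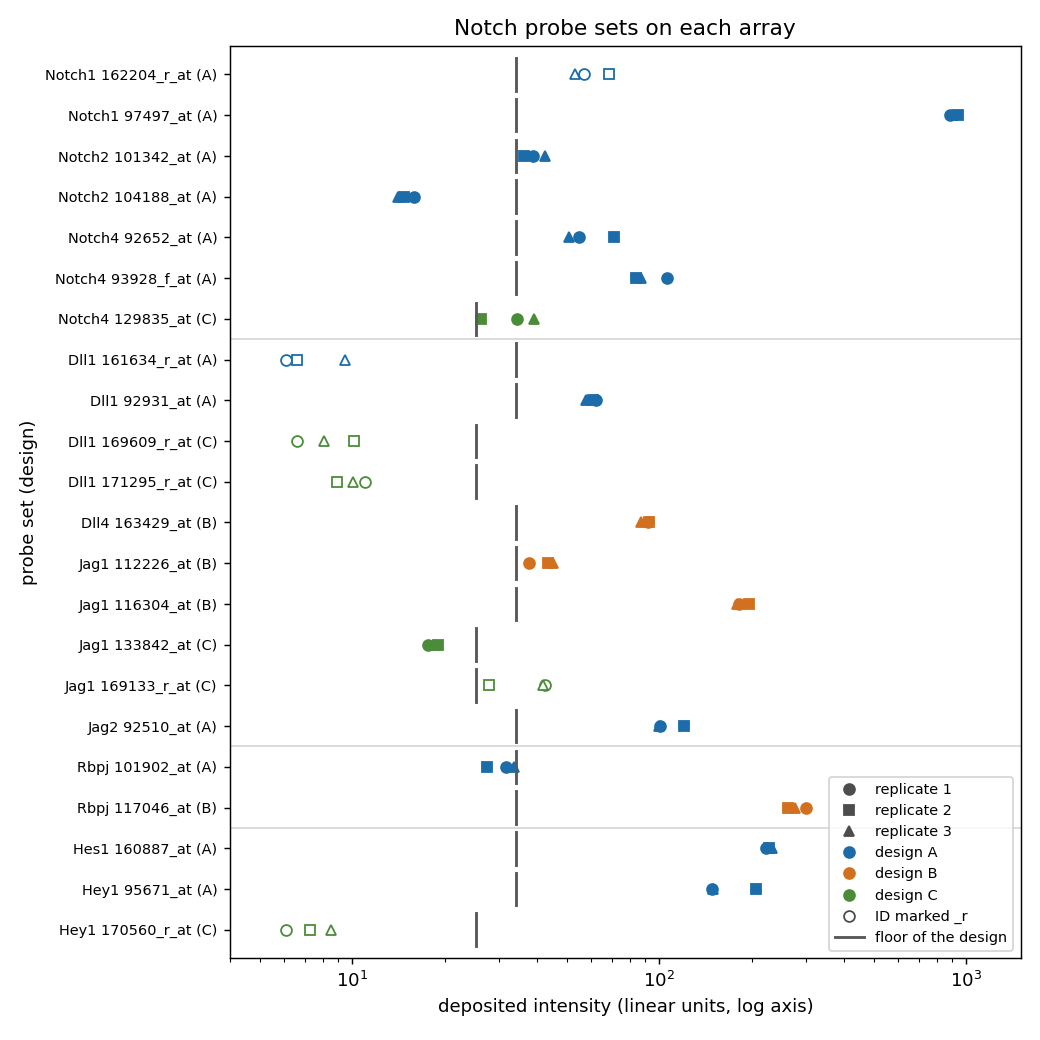
Deposited intensity (log axis) of each of the 22 Notch probe sets on its 3 replicate arrays, with colour for the array design, shape for the replicate, open symbols for IDs with an r mark, and a grey bar for the mean floor of the design. The Notch1 probe set 97497_at reads 881 to 938, and the dimmest are the r-marked sets of Dll1 and Hey1.

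Among the receptors, Notch1 gave the brightest reading of the 22 probe sets. Notch1 is the receptor that restrains sprouting in retinal vessels. Its probe set 97497_at on design A read 881, 938 and 903 in replicates 1, 2 and 3, a mean of 907 ± 28 (SD, n = 3). That is 20.6 times the array median and percentile 97.9 ± 0.12. The 3 arrays nearly coincided, with an SD of 0.04 on the log2 scale, and 4.8% of the 500 probe sets nearest to it in signal had a smaller one. The other Notch1 probe set, 162204_r_at, read 56.9, 68.4 and 53.0, at percentile 60.6 ± 4.0. It lay above the floor on all arrays but 3.94 log2 units below the first, although both are annotated to the same gene and sat on the same arrays.

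Notch4, a receptor largely restricted to endothelium, was above the floor with each of its 3 probe sets. The probe set 93928_f_at read 106, 83.7 and 86.9 on design A, at percentile 72.9 ± 2.8 (SD, n = 3). The probe set 92652_at read 54.6, 71.0 and 51.0, at percentile 60.0 ± 5.4. These probe sets did not move together, since the first was highest on replicate 1 and the second on replicate 2. On design C, 129835_at read 34.4, 26.2 and 39.0, at percentile 50.2 ± 8.2, and its replicate 2 value lay just over the floor of 25.4. An f in an ID marks probes shared by a sequence family, so 93928_f_at may also read related transcripts.

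Notch2, a receptor of broad distribution, gave the lowest positions among the receptors. Its probe set 101342_at read 38.7, 36.4 and 42.5 on design A, each just above the floors of 33.5, 34.2 and 34.9, at percentile 45.5 ± 3.0 (SD, n = 3). The probe set 104188_at read 15.9, 14.8 and 14.1, below the floor on every array, at percentile 12.3 ± 1.9. Both were steady between arrays, with log2 SDs of 0.11 and 0.10, so the gap of 1.39 log2 units between them was larger than their spread. In all, 6 of the 7 receptor probe sets exceeded the floor, beside 56.5% of all probe sets.

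Among the ligands, the single probe sets of Dll4 and Jag2 and 1 of 4 Jag1 probe sets stood clearly above the floor. Dll4, the tip cell ligand, read 92.0, 92.6 and 87.2 on design B (163429_at), a mean of 90.6 ± 3.0 at percentile 74.6 ± 1.0 (SD, n = 3). All 3 arrays lay within 0.07 (SD) on the log2 scale and at 2.07 times the array median. Jag2, a Jagged ligand that is also made by endothelium, read 100.2, 120.5 and 99.9 on design A (92510_at), at percentile 76.3 ± 1.7. Its replicate 2 value stood above those of replicates 1 and 3, which nearly coincided.

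Jag1, the ligand that opposes Dll4 in sprouting, straddled the floor with its 4 probe sets. On design B, 116304_at read 181, 196 and 179, at percentile 89.2 ± 1.1 (SD, n = 3), and 112226_at read 37.6, 43.4 and 44.9, at percentile 48.3 ± 3.6. Both were above the floor on all arrays, and they differed by 2.15 log2 units on the same arrays. On design C, 169133_r_at read 42.3, 27.9 and 41.9, at percentile 54.6 ± 9.4, and 133842_at read 17.6, 19.0 and 18.5, at percentile 27.7 ± 1.3, below the floor throughout. The replicate 2 array was the low one for 169133_r_at, whose log2 SD of 0.35 was the widest of the 22, wider than in 96.8% of the 500 probe sets nearest in signal.

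Dll1, a Delta ligand with a role in arterial endothelium and in retinal progenitors, was above the floor with 1 of 4 probe sets. The probe set 92931_at on design A read 62.3, 60.6 and 57.7, at percentile 61.3 ± 0.97 (SD, n = 3), and its arrays lay close together. The r-marked sets 161634_r_at on design A and 169609_r_at and 171295_r_at on design C lay at percentiles 3.49, 8.41 and 11.5, with intensities between 6.07 and 10.97, far under the floor. Over the 4 ligands, 6 of 10 probe sets exceeded the floor, beside 56.5% of all probe sets.

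**Figure D2:**
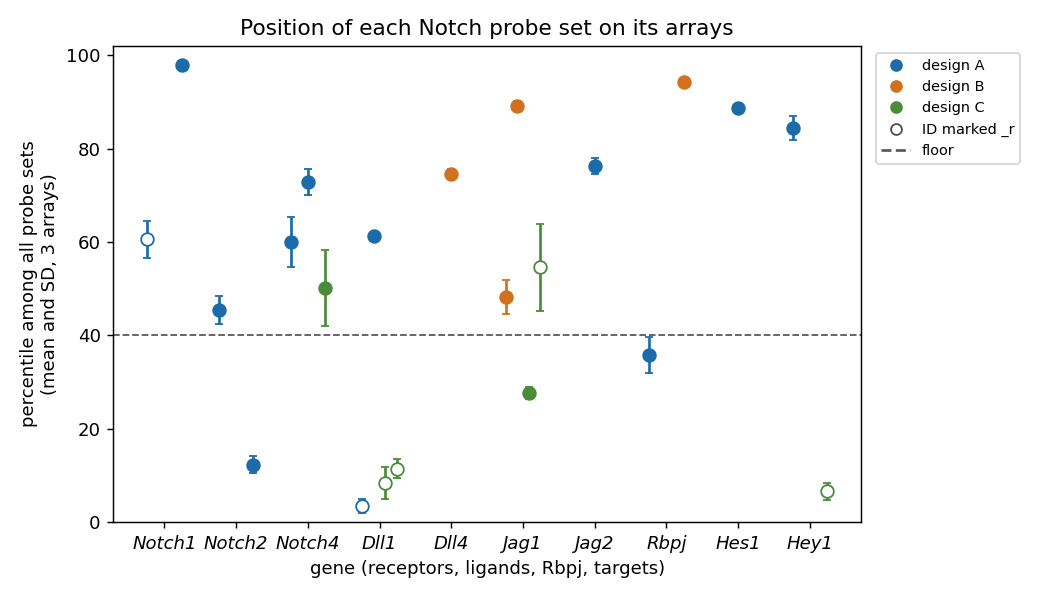
Mean percentile of each Notch probe set among all probe sets of its arrays, with bars of 1 SD over 3 arrays, by gene in the order receptors, ligands, Rbpj and targets; the dashed line is the floor and open symbols have an r mark. Rbpj, Jag1, Dll1, Notch2 and Hey1 straddle the floor, and Notch1 reaches 97.9.

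Rbpj encodes the DNA-binding protein on which signals of all Notch receptors converge, and its probe sets disagreed. On design B, 117046_at read 299.5, 263 and 277, at percentile 94.3 ± 0.27 (SD, n = 3) and 6.40 times the array median. On design A, 101902_at read 31.6, 27.5 and 33.6, at percentile 35.8 ± 3.8. This probe set lay below the floors of 33.5, 34.2 and 34.9 on each array. They are different probes on different arrays, so no ratio is given between them.

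The target genes were read well above the floor on design A. Hes1, a repressor of the basic helix-loop-helix class induced by Notch, read 222, 227 and 232 (160887_at), at percentile 88.7 ± 0.71 and 5.16 times the array median (SD, n = 3). Its log2 SD of 0.02 was the smallest of the 22, and 0.4% of the 500 probe sets nearest in signal had a smaller one. This rank depended on the scaling. After quantile normalization within the design the SD of Hes1 was 0.09, above the 0.04 of the Rbpj probe set 117046_at. Hey1, a related repressor that acts in arterial endothelium, read 148, 207 and 149.6 (95671_at), at percentile 84.5 ± 2.5. Replicate 2 was the high array and the others nearly coincided. The log2 SD of Hey1 was 0.27, wider than in 87.6% of the 500 nearest probe sets. The other Hey1 probe set, 170560_r_at on design C, read 6.10, 7.27 and 8.52, below the floor on every array, at percentile 6.61 ± 1.8.

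Disagreement between probe sets of a gene was common here and elsewhere on the arrays. Of the 7 Notch genes with 2 or more probe sets, 5 had them on both sides of the floor, as did 57.1% of the 7645 genes of the arrays with 2 or more. These shares were not matched for the number of probe sets per gene. Part of the low readings came with the r mark, which Affymetrix gave to probe sets for which design rules had been relaxed. The 6 r-marked Notch probe sets had a median percentile of 9.94 and 2 exceeded the floor, whereas the 15 plain ones had a median of 61.3 and 12 exceeded it. Over all arrays, the 3236 r-marked probe sets had a median of 32.9 and 43.0% exceeded the floor. The 27804 plain ones had a median of 51.3 and 58.5% exceeded it. The part of probe design in the disagreements was not tested.

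A stricter threshold was set on design A from those genes of unrelated tissues, such as liver, pancreas, testis and muscle, which gave 40 probe sets of 30 genes. The 90th percentile of these lay at intensities of 71.8, 64.6 and 77.5 on the 3 arrays. Of the 12 Notch probe sets of design A, 5 exceeded it on all arrays, beside 29.6% of all probe sets of the design. They were those of Notch1 (97497_at), Notch4 (93928_f_at), Jag2, Hes1 and Hey1. The better probe sets of Notch2 and Dll1 did not exceed it on any array, and those of Notch1 (162204_r_at) and Notch4 (92652_at) did so on replicate 2 only. The same list gave 2 probe sets for design B and 11 for design C, too few for a threshold to be relied on there. With those thresholds taken all the same, 9 of the 22 Notch probe sets passed, beside 33.8% of all probe sets. On design B the threshold lay at percentiles 36.2 to 38.9, under the floor, and all 4 Notch probe sets there passed it.

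The spread of the Notch probe sets between arrays differed by design. Over all designs, the median log2 SD over 3 arrays was 0.13 for the 15 Notch probe sets above the floor and 0.12 for all probe sets above it. With those below the floor included, the median was 0.15 for the Notch probe sets of design A, beside 0.13 for all its probe sets. It was 0.09 beside 0.13 on design B, and 0.28 for the 6 of design C, beside 0.14. For the 2 of design C above the floor it was 0.33, beside 0.12. Those of design C below the floor were dim, and the 500 probe sets nearest to each in signal had median SDs of 0.15 to 0.23. Of the 22, 9 had a smaller SD than the median of the 500 probe sets nearest in signal on the same design. Replicate 2 read highest for 5 of the 9 Notch probe sets above the floor on design A, and did so for 44.8% of all probe sets above the floor there. For design B the count was 3 of 4, beside 35.8%. Both design C probe sets above the floor, of Notch4 and Jag1, were lowest on replicate 2 and highest on replicate 3, which was highest for 33.3% of all probe sets above the floor of that design.

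**Figure D3:**
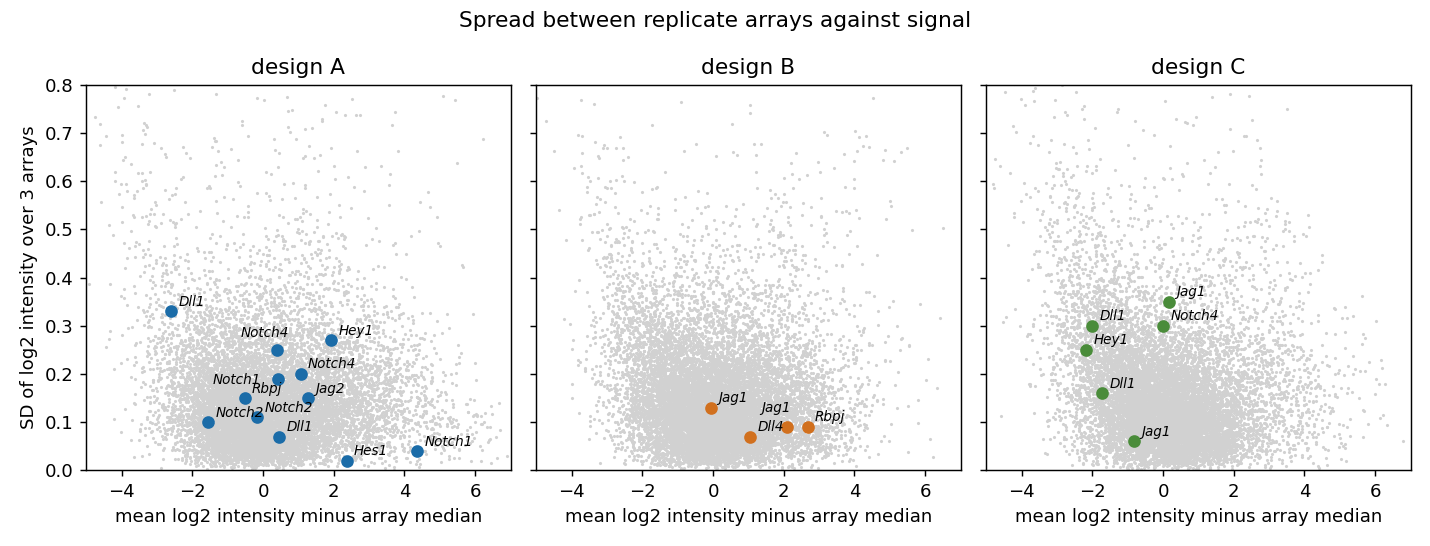
SD of the log2 intensity over 3 arrays against the mean log2 intensity relative to the array median, for all probe sets of each design (grey) and the Notch probe sets (coloured and named). Hes1 and Notch1 on design A lie near the bottom of the cloud and Jag1 (0.35) and Notch4 (0.30) on design C lie above most points of like signal; 134 grey points with an SD above 0.8 are off the axis.

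A wider list of 74 pathway genes was read alongside, of which 65 had a probe set with a single symbol. Of these, 54 genes had at least 1 probe set above the floor, beside 72.4% of all genes, and 80 of their 130 probe sets exceeded it, beside 56.5% of all probe sets. Their median percentile was 53.4. The share of genes was not matched for the number of probe sets per gene. The receptor Notch3, which acts in mural cells, read 35.9, 34.8 and 35.1 on design A, just over the floors of 33.5, 34.2 and 34.9.

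The genes that process ligands and glycosylate receptors had the highest median of the wider roles, a percentile of 80.4 over 12 probe sets. In this role, 8 of 8 measured genes exceeded the floor, beside 72.4% of all genes. Poglut1, which adds glucose to Notch, lay at percentile 97.4 ± 0.56 on design B (SD, n = 3). The fringe enzymes, which modify Notch sugars and so shift its preference between Delta and Jagged ligands, differed, with Mfng at 81.7 ± 1.9 and Rfng at 79.1 ± 3.2. The probe sets of Lfng lay at 47.3 ± 3.5 (160601_at, design A) and 17.9 ± 5.2 (114102_at, design B), which made it the lowest gene of this role by mean position. The ubiquitin ligase gene Neurl1a, whose product promotes ligand uptake, had all 3 probe sets between percentiles 85.7 and 88.3.

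Of the cleavage machinery, 7 of 9 measured genes exceeded the floor, beside 72.4% of all genes. Furin, which cuts the receptor on its way to the surface, lay at 90.5 ± 0.65 (SD, n = 3). Adam10, the main protease of ligand-activated cleavage, lay at 89.7 ± 0.78 with 97947_at and at 10.6 ± 2.4 with 100751_at. The gamma-secretase subunit Psen2 lay at 82.3 ± 2.3, while Aph1b, another subunit, was the lowest gene of this role at 20.5 ± 1.8.

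Other genes listed as targets spanned a wide range, and whether Notch drives them in these cells was not tested. Unc5b, a guidance receptor of tip cells and arteries, reached percentile 99.6 ± 0.16 with 112955_at (SD, n = 3), and its other probe sets lay at 58.4 and 60.7. The arterial ephrin Efnb2 read 1399, 1382 and 1004 on design A. Nrarp, a feedback inhibitor of Notch, read 225, 306 and 234 with 108954_at, and its other probe set lay at percentile 13.04. Myc was lowest among targets by mean position, at 9.05 ± 2.1. Heyl, a target in mural cells, lay at 25.2 ± 1.8. Hes5, a target in neural progenitors and glia, had 4 probe sets between percentiles 1.56 and 88.8. In all, 11 of 13 measured genes listed as targets exceeded the floor, beside 72.4% of all genes.

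Among the remaining roles, 12 of 17 measured nuclear cofactors, 9 of 10 turnover genes and 6 of 7 further ligands and related genes had a probe set above the floor. Of all genes, 72.4% had one. The corepressor Ctbp1 lay at 97.6 ± 0.33 and the corepressor gene Tle4 was lowest by mean position, with probe sets at 10.5 and 22.1. Both probe sets of the coactivator gene Ep300 were below the floor. Dtx4, a Deltex ubiquitin ligase, lay at 97.9 ± 0.48 and 78.4 ± 0.78 on designs B and C (SD, n = 3), the highest turnover gene, and Bmp2k, a kinase gene, was lowest with a mean position of 24.97 over 3 probe sets. Dlk2, a non-canonical Delta-like protein, was highest among the further ligands by mean position of the gene, at 76.5 ± 1.5, although 1 of the 4 probe sets of Mfap5 lay at 84.2. Cntn1, a neural contactin, was lowest by mean position, and none of its 4 probe sets exceeded the floor on all 3 arrays.

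**Figure D4:**
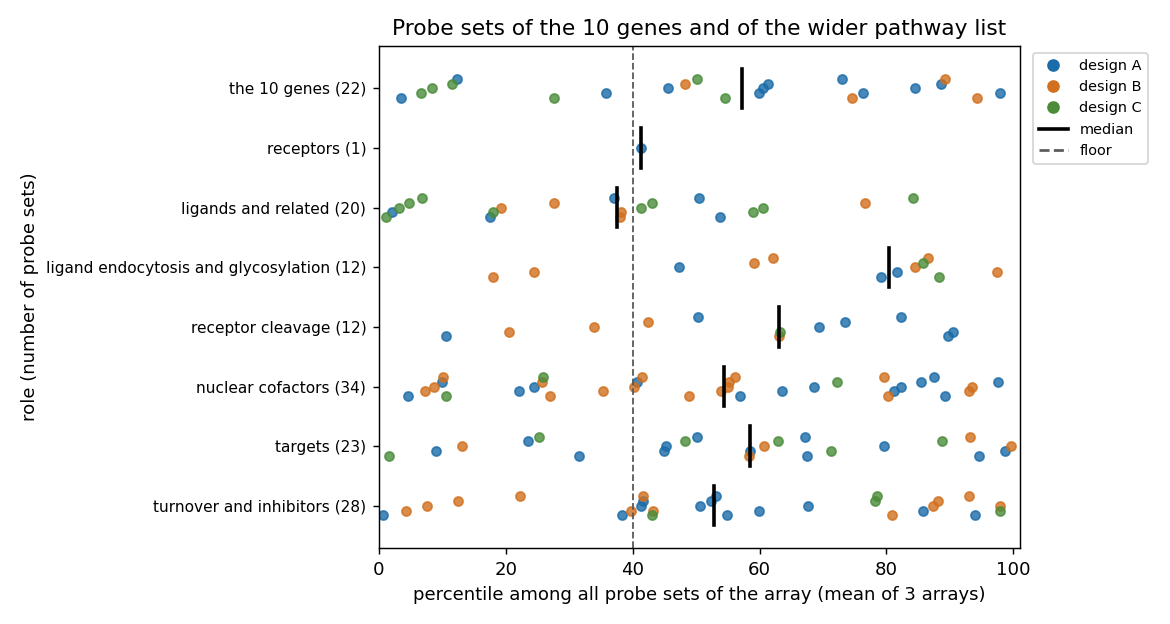
Mean percentile of every probe set of the 10 Notch genes (top row) and of the wider pathway list by role, coloured by array design; black bars are medians and the dashed line is the floor. Medians range from 37.5 for further ligands to 80.4 for ligand endocytosis and glycosylation, with 57.3 for the 10 genes.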

How the data were processed

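The arrays were Affymetrix MGU74v2 designs A, B and C, in 3 replicates each, and the authors deposited 1 linear intensity per probe set and array. The summary of probe values, their scaling and any filter were not given in the sources used here. Medians of the deposited intensities were close within a design (43.6 to 44.3 on design A, 42.9 to 44.5 on B, 32.3 to 32.9 on C), and the close medians may come from scaling. Across probe sets, replicate arrays had a Pearson correlation of 0.981 to 0.987 on the log2 scale. The number of arrays limits the precision.

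Names came from the platform's gene annotation, in which 29131 probe sets had 1 symbol, 724 had several and 6846 had none. All 22 Notch probe sets carried an Entrez identifier with the same symbol in RefSeq for GRCm38.p6. No probe set coordinates are given. Percentiles, log2 values centred on the array median, and the floor were computed in Python 3.11.15 with pandas 2.3.3, and the steps were tested on simulated data. Before log2, an intensity of 0 was raised to the lowest positive one on the array. No significance test was made, since all arrays share 1 condition. The members and lists were chosen with earlier results of these data known. All members were named; in the wider list, the highest and lowest genes of a role and others of it. No search for genes of like pattern was run, as 3 arrays of 1 condition give none. The genes set side by side for replicate 2 under Other observations were picked out after their values were seen. Alternatives covered the floor, the probe sets used, the ranking background, the gene summary, the pseudocount of 50, quantile normalization and each replicate left out.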

Additional observations from a re-analysis of the deposited data

How the results depend on the processing

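No paired analysis was possible because all arrays are of 1 condition and no groups were compared. With 1 replicate number left out on all designs, the count of Notch probe sets above the floor stayed at 15 and that of genes at 10. Neither count could fall, since a call needs every array used, and the gene count was already 10 of 10. The median percentile then lay between 56.3 and 57.7. A floor at the 50th percentile left 11 of the 22 probe sets, of 9 genes. The share of all probe sets above that floor on all 3 arrays was not computed. The tissue-foreign threshold of each design was passed by 9 probe sets, beside 33.8% of all probe sets. On design B it rests on 2 probe sets. It lay at percentiles 36.2 to 38.9 there, under the floor, and at 83.4 to 86.3 on design C. Requiring every probe set of a gene to pass the 40th percentile floor left 5 of 10 genes, beside 45.1% of all genes. The median percentile of 57.3 became 61.3 with plain probe sets, 55.3 when ranked among probe sets with 1 symbol, 63.0 with 1 mean per gene and 80.4 with the highest probe set per gene. On the wider list, the alternatives were chosen after seeing the data. There, 50 of 130 probe sets passed the tissue-foreign threshold of their design, beside 33.8% of all probe sets. The 50 included design B probe sets of Aak1 and Ctbp2 that were not above the floor. Requiring every probe set above the floor left 34 of 65 genes, beside 45.1% of all genes. The median of 53.4 became 53.9, 51.3, 50.4 and 71.3 under the same settings, with 53.0 to 53.4 when a replicate was left out. Ranked among probe sets with 1 symbol, 4 of the 22 member percentiles moved by their SD or more. With a replicate left out, such a move was not possible, since the SD came from the same 3 arrays. None of the 88 recomputed member percentiles moved by more than 5.40 points. With 50 added before log2, the median log2 SD of the Notch probe sets was 0.06, against 0.15 without it. After quantile normalization within the design it was 0.14. Dim readings are limited by unknown background.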

Other observations

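Some genes linked to arteries or to Notch feedback read highest on replicate 2 and others did not, and they were picked out after their values were seen. The gap junction gene Gja4 read 97.6, 180 and 116 on design A, and Gja5 read 37.2, 51.1 and 45.3, both highest on replicate 2. Hey1 on design A and 1 of the 2 Nrarp probe sets on design B were also highest there. Efnb2 was highest on replicate 1, as were the other Nrarp probe set and Dll1 (92931_at), and both probe sets of Dtx1 were lowest on replicate 2. Of the 38 probe sets of the wider list above the floor on design A, 11 were highest on replicate 2, beside 44.8% of all probe sets above the floor there. High readings on replicate 2 were not particular to these genes. Of the 13 endothelial marker probe sets above the floor on design A, 8 were highest on replicate 2, 4 on replicate 1 and 1 on replicate 3. Of the 5 progenitor and neuron probe sets above it there, 3 were highest on replicate 1 and 2 on replicate 3. Arrays of equal number on different designs are not known to share an RNA sample.

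Among the further ligands and related genes, Mfap5, a microfibril protein, had probe sets at percentiles 17.4, 37.0, 41.3 and 84.2, and Egfl7, an endothelial protein that binds Notch, had 2 on design C at 17.9 and 43.1.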
